A study of Xenopus tropicalis with 11 samples.

Results

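In whole blastula and early gastrula embryos of the frog Xenopus tropicalis, 3046 genomic regions carried Foxh1 at stages 8 and 9, the co-repressor Tle at stage 8 and Foxa at stage 10.25. None of them carried a peak of gastrula Foxh1 or gastrula Smad2/3. They were chosen by the presence and absence of peaks in 6 deposited ChIP-seq peak lists, after peaks overlapping by 1 base or more had been merged into regions. The 3046 regions, called Tle/Foxa regions here, were 3.43% of all 88697 regions and 7.51% of the 40546 regions with Foxh1 at any stage. Among the 16510 regions with Foxh1 at both blastula stages and no gastrula peak (blastula-stable regions), they made up 18.4% (Wilson 95% interval 17.9 to 19.05%).

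Foxh1 is a forkhead transcription factor that the egg supplies to the embryo. It acts with Smad2/3, which carry the Nodal signal to the genes of mesoderm and endoderm. Tle proteins, of the Groucho family, do not bind DNA themselves and are brought to it by transcription factors, where they hold transcription down. Foxa factors are forkhead proteins of the endoderm and the organizer that can bind closed chromatin, and in mouse cells a Foxa protein has been shown to recruit a Groucho-family co-repressor. Foxh1 and Foxa belong to the same structural family of DNA-binding proteins.

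The embryos were of the Nigerian strain and the labels name no treatment other than fixation. Foxh1 was profiled at stages 8 and 9 with a custom antibody against the Xenopus tropicalis protein, Tle at stage 8 and Foxa at stage 10.25 with commercial antibodies, and Foxh1 and Smad2/3 in the early gastrula, the last pair being lists the authors made again from samples of an earlier series. Each Foxh1 list of the blastula stood for 2 pooled replicates and the Tle and Foxa lists for 1 library each, and replicate error is therefore unknown. Because whole embryos were used, peaks in 1 region may stem from different cells, and Tle and Foxa were not profiled at the same stage. The gastrula lists are short, with 1290 Foxh1 and 480 Smad2/3 peaks, so a region without a gastrula peak is not shown to be unbound then. The Tle library was made with another kit than the rest and has an input of its own, and the depth behind the lists is unknown. Shares and medians below are descriptions of these lists, without a test, and the intervals cover counting error over regions only, which are not replicates and not independent of their neighbours.

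Of the other blastula-stable regions, 6963 carried Tle without Foxa, 1409 carried Foxa without Tle and 5092 carried neither. Foxa was thus present at 30.4% of the blastula-stable regions with Tle and at 21.7% of those without it. Merging lets a Tle peak widen a region and so bring in a Foxa peak, and its part in these shares was not tested. The Tle/Foxa regions held 10.9% of all stage 8 Foxh1 peaks, 10.4% of the stage 9 peaks, 8.30% of the Tle peaks and 7.79% of the Foxa peaks. In 2777 of them (91.2%) each of the 4 lists had exactly 1 peak. The median region was 566 bases wide, with a range of 244 to 2296 bases.

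The rule needs an overlap of 1 base, and 3 members rested on an overlap of 1, 6 and 7 bases. The nearest misses were 3 Tle-without-Foxa regions whose closest Foxa peak began 2, 3 and 6 bases away. The first of these members lay on scaffold 6 from 49722178 to 49723534 and the first of the misses on scaffold 4 from 83671813 to 83672316. Few regions stood near this border. In 51 of the 3046 members (1.67%) the deciding overlap was under 100 bases, and 66 Tle-without-Foxa regions (0.948%) had a Foxa peak at a gap of 100 bases or fewer. For exclusion, the closest gastrula peak outside a member was 139 bases away, and 22 members had one at a gap of 500 bases or fewer.

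The place of these regions within each list was as follows. Rank share is used here for the percentage of a list's peaks with a value at or below that of the highest peak in the region, taken from the deposited −log10 p for Foxh1 and from the deposited score for Tle and Foxa. The lists differ in length and in the kind of value, so rank shares do not compare peak heights between lists. The median rank share of the Tle/Foxa regions was 70.8% in stage 8 Foxh1, 83.3% in stage 9 Foxh1, 76.5% in Tle and 68.3% in Foxa. The Foxh1 folds over local background had a median of 19.7 at stage 8 (range 6.26 to 50.3) and 23.4 at stage 9 (6.16 to 50.2). Scores ranged from 3.02 to 251 in Tle, with a median of 13.9, and from 3.10 to 238 in Foxa, with a median of 16.6. Each list had members among its lowest and its highest peaks, so the class holds weak and strong peaks of every factor.

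Set beside the other blastula-stable regions, the Tle/Foxa regions had a median stage 8 rank a little below that of the Tle-without-Foxa regions and the highest median stage 9 rank of the 4 classes. The median stage 8 Foxh1 rank share was 74.9% at Tle-without-Foxa regions, 42.0% at Foxa-without-Tle regions and 43.8% at regions with neither. The stage 9 medians of the same classes were 58.3, 75.5 and 48.2%. The Tle rank share did not separate regions with Foxa from those without, at a median of 76.5% in each class. Foxa peaks had a median rank share of 60.3% where Tle was absent. The regions with Foxh1 at all 3 stages stood higher in every list, at 85.5 and 95.4% for the blastula lists, 84.9% for Tle and 92.2% for Foxa. Still, 473 Tle/Foxa regions (15.5%, 14.3 to 16.9%) had a stage 9 peak above the median of those 3-stage regions. That was so for 4.37% of the Tle-without-Foxa, 5.18% of the Foxa-without-Tle and 0.943% of the other blastula-stable regions. These ranks come from the lists that chose the regions and support nothing beyond the description.

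**Figure D1:**
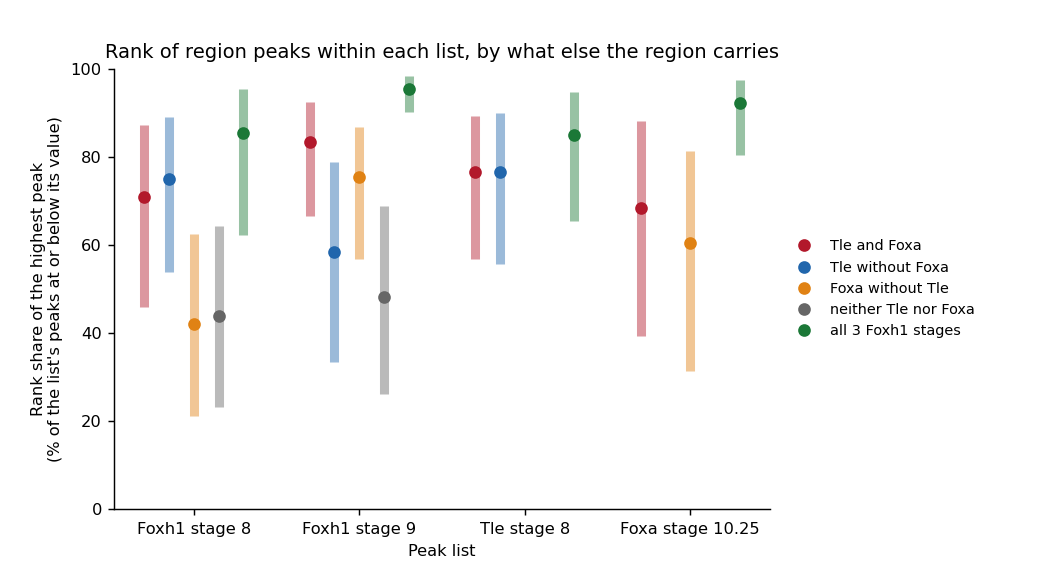
Rank share (percent of the peaks of a list at or below the value of the region's highest peak) in each of the 4 lists, for the 4 classes of blastula-stable Foxh1 regions and for regions with Foxh1 at all 3 stages; points are medians and bars run from the lower to the upper quartile. The Tle/Foxa regions lie at 70.8% in stage 8 Foxh1 and 83.3% in stage 9 Foxh1, while Tle-without-Foxa regions lie at 74.9 and 58.3%.

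Tle went mainly with the stage 8 rank of Foxh1 and Foxa with the stage 9 rank. When the blastula-stable regions were divided into 5 equal classes by stage 8 rank, the share with Tle went from 33.5% in the lowest to 90.5% in the highest class, and the share with Foxa stayed between 25.5 and 27.9%. By stage 9 rank, the share with Foxa went from 8.29 to 54.3% and that with Tle from 51.3 to 76.5%. At a given stage 9 rank Foxa was mostly less frequent the higher the stage 8 rank was. In the highest stage 9 class, for example, 80.3% of the regions in the lowest stage 8 class and 43.5% of those in the highest had a Foxa peak.

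The share with Tle and Foxa together moved more with the stage 9 class than with the stage 8 class. It went from 12.7 to 25.4% over the stage 8 classes. By stage 9 class it was 4.76, 8.16, 13.9, 23.7 and 41.8% from the lowest to the highest. Within the highest stage 9 class it lay between 39.9 and 44.2% in all 5 stage 8 classes. In the next lower one it was 25.7 to 26.8% in the first 4 stage 8 classes and 15.4% in the highest. With stage 9 rank held, but not stage 8 rank, Foxa was more frequent with Tle than without it in each of the 5 classes, with overlapping intervals. In the highest stage 9 class Foxa was present at 54.6% of regions with Tle (52.7 to 56.5%) and 53.3% of those without (49.8 to 56.8%), and in the lowest class at 9.28% (7.99 to 10.8%) and 7.24% (6.07 to 8.60%). Because Tle rose and Foxa mostly fell with stage 8 rank, these shares do not compare regions of equal stage 8 rank. Within the highest stage 9 class and the lowest stage 8 class, Foxa was at 69 of 77 regions with Tle, against 139 of all 173. In the following stage 8 classes it was 122 of 152 against 214 of 293, 209 of 287 against 316 of 480 and 325 of 531 against 419 of 735. In the highest it was 654 of 1478 against 705 of 1621. All regions here include those with Tle. The share with Tle was above that of all regions in each of the 5 stage 8 classes. In this stage 9 class Foxa was therefore more frequent with Tle than without it at each stage 8 class. The differences from regions without Tle are larger than these pairs show, and they were not tested. Tle and Foxa are also lists that chose the regions. Merging lets a Tle peak widen a region and so bring in a Foxa peak, and the part of this was not tested.

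**Figure D2:**
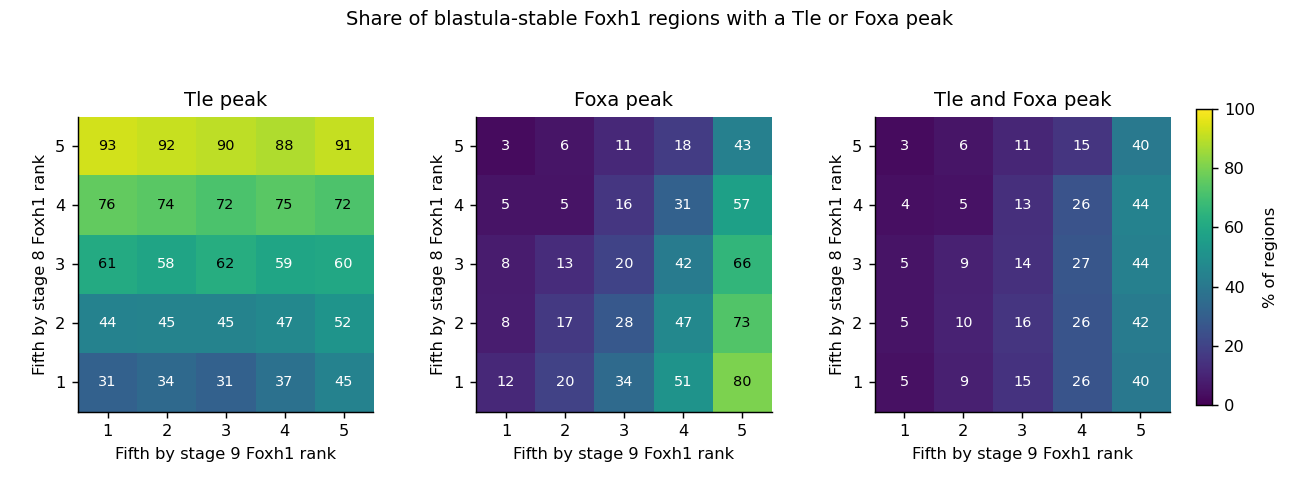
Percent of blastula-stable Foxh1 regions with a Tle peak, a Foxa peak or both (color and number), in 5 equal classes of stage 8 Foxh1 rank (vertical) and of stage 9 Foxh1 rank (horizontal), with 5 as the highest. Tle shares change mainly along the vertical axis and Foxa shares mainly along the horizontal one. The share with both is 4.76% in the lowest and 41.8% in the highest stage 9 class over all stage 8 classes.

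Among the Tle/Foxa regions themselves the ranks of the lists went together only in part. Across the 3046 regions Spearman's rho was 0.547 between stage 8 Foxh1 and Tle, 0.540 between the Foxh1 stages, 0.293 between stage 9 Foxh1 and Tle and 0.260 between stage 9 Foxh1 and Foxa. It was 0.0274 between Tle and Foxa and -0.027 between stage 8 Foxh1 and Foxa. The points of each list share 1 library or pool and its depth, so these values are descriptions. The lowest of the 4 rank shares was most often that of Foxa, in 1231 regions (40.4%), or of stage 8 Foxh1, in 977 (32.1%). It was that of Tle in 553 and of stage 9 Foxh1 in 285 regions. All 4 peaks were in the upper 50% of their lists in 1233 regions (40.5%), above a rank share of 75% in 404 and above 90% in 64.

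The region with the highest lowest-of-4 rank share lay on scaffold 5 from 2410768 to 2411744. Its Foxh1 folds were 34.5 at stage 8 and 33.1 at stage 9, its Tle score was 59.3 and its Foxa score 96.4, and none of its 4 rank shares was below 96.9%. The second lay on scaffold 1 from 187324279 to 187324989, with folds of 36.7 and 33.3 and scores of 97.6 for Tle and 113 for Foxa. Another, on scaffold 7 from 64978090 to 64978872, had folds of 35.3 and 30.2 and scores of 60.8 and 118. Next in order, on scaffold 2 from 104193837 to 104194567, reached a stage 8 fold of 44.2 with a Tle score of 53.0 and a Foxa score of 142. The next 4 lay on scaffold 8 from 74333833 to 74334768, scaffold 1 from 180318273 to 180318975, scaffold 2 from 65183350 to 65184813 and scaffold 6 from 111431163 to 111432142. Of these 8 regions, the one on scaffold 1 at 187324279 had its nearest other Tle/Foxa region 24.4 kb away, and the others had one at gaps of 0.1 to 2.7 kb.

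Regions at the top of a single list had partners of low and of high rank. In the class as a whole, 1813 of 3046 regions had a lowest rank share of 50% or under. The highest stage 8 Foxh1 peak of the class by −log10 p, on scaffold 3 from 95705393 to 95706266, had a fold of 49.9 and a Foxa rank share of 66.5%. The next, on scaffold 4 from 36982856 to 36983830, had a fold of 47.2 and a Foxa rank share of 27.3%. By fold the highest stage 8 peak, at 50.3, lay on scaffold 629 from 30459 to 31014, where the Tle rank share was 39.3%. The highest stage 9 peak, on scaffold 9 from 7484694 to 7485219, was also among the highest at stage 8, with folds of 50.2 and 49.5, and had a Tle score of 122 and a Foxa score of 34.2. The next stage 9 peak lay on scaffold 3 from 8131619 to 8132316, where the lowest of the 4 rank shares was 88.5%, in Foxa. The one after it lay on scaffold 328 from 19669 to 20125, with a lowest rank share of 69.6%, also in Foxa. The highest Tle peak, on scaffold 9 from 35650927 to 35651921, scored 251, and the Foxa peak of that region scored 7.59, a rank share of 29.9%. At the second highest Tle peak, on scaffold 5 from 90897265 to 90899093, the Tle score was 207 and the Foxa peak, with a score of 7.20, was centred 736 bases from the Tle peak. At the next, on scaffold 1 from 203082003 to 203083354, the Tle score was 201 and the lowest rank share, again in Foxa, was 85.4%. The highest Foxa peak of the whole Foxa list was in this class, on scaffold 3 from 108795961 to 108796675, where Foxa scored 238 and Tle 106. The second highest, on scaffold 10 from 13953145 to 13953793, scored 222 and had a stage 8 Foxh1 fold of only 8.30 and a Tle score of 6.68.

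Most members had a stretch shared by the peaks of all 4 lists. In 2871 of the 3046 regions (94.3%, 93.4 to 95.03%) such a stretch was present, with a median of 224 bases. The rule joined overlapping peaks, so such a stretch and short distances between centres are largely given by the rule. The Foxh1 peaks of these regions had median widths of 438 bases at stage 8 and 470 bases at stage 9. The summits of the 2 Foxh1 stages were a median of 13 bases apart. The middle of the Tle peak was a median of 47 bases from the stage 8 summit, and the middle of the Foxa peak 54 bases from the stage 8 and 46 bases from the stage 9 summit. Tle and Foxa middles were a median of 62 bases apart. Summits are given by the Foxh1 lists, whereas Tle and Foxa centres are middles of peaks, so the first of these distances is not comparable with the others. Other classes were about as compact or more so. A common stretch was present in 96.6% of the regions with Foxh1 at all 3 stages, Tle and Foxa. Over all regions with Foxh1 at 3 stages, the blastula summits were a median of 9 bases apart. Where these regions had Tle, its middle was a median of 48 bases from the stage 8 summit. Where they had Foxa, its middle was a median of 48 bases from the stage 9 summit. The Foxh1 summits were a median of 11 bases apart at Tle-without-Foxa and 10 at Foxa-without-Tle regions. The Tle middle was 41 bases from the stage 8 summit in the former, and the Foxa middle 43 bases from the stage 8 and 41 from the stage 9 summit in the latter. The widest members differed among themselves. The widest of all, 2296 bases on scaffold 9 from 8567580 to 8569875, had Foxh1 summits 4 bases apart, a Tle middle 192 and a Foxa middle 814 bases from the stage 8 summit. The second widest, 2121 bases on scaffold 1 from 181806363 to 181808483, had Foxh1 summits 15 bases apart, with the Tle middle 39 and the Foxa middle 8 bases from the stage 8 summit.

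In some regions the Foxh1 summits called at the 2 stages lay apart. Each summit is a single call from a pooled list, so how far it would move between replicates is unknown. The summits were more than 50 bases apart in 330 Tle/Foxa regions (10.8%), against 5.28% of all blastula-stable regions. Among Tle/Foxa regions with 1 Foxh1 peak at each stage they were so in 299 of 2936 (10.2%). The shares over all regions of a class were 6.22% at Tle-without-Foxa, 3.83% at Foxa-without-Tle and 1.08% at the other regions. Width moved with this share. Stage 9 peaks of Tle/Foxa regions had a median width of 470 bases, against 311, 351 and 245 bases in those classes. Among regions with a stage 9 peak of at least 372 bases the shares were 12.9% (11.6 to 14.4%) with Tle and Foxa, 11.9% (10.6 to 13.3%) with Tle alone, 7.09% (5.29 to 9.45%) with Foxa alone and 4.94% (3.25 to 7.44%) with neither. The intervals of the Tle/Foxa and Tle-without-Foxa regions thus overlapped when width was held, as they did for narrower peaks.

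Where the summits were apart, the Foxa middle was mostly nearer the later one. Of the 330 regions, 240 (72.7%, 67.7 to 77.2%) had the Foxa middle nearer the stage 9 summit and 89 nearer the stage 8 summit, with 1 tie. The median distance of the Foxa middle was 53.5 bases to the stage 9 and 132.5 bases to the stage 8 summit. The Tle middle was nearer the stage 8 summit in 169 regions (51.2%, 45.8 to 56.6%) and nearer the stage 9 summit in 161. These shares depend on setting Foxh1 summits against peak middles and on which regions count as apart. With middles for Foxh1 too, the regions with those over 50 bases apart are another set than the 330. In that set Tle was nearer stage 8 in 60.9% (57.4 to 64.3%). Foxa was then nearer stage 9 in 65.2% (61.8 to 68.5%). With summits more than 200 bases apart, in 112 regions, the Foxa middle was nearer the stage 9 summit in 89 (79.5%, 71.1 to 85.9%) and the Tle middle nearer the stage 8 summit in 72 (64.3%, 55.1 to 72.5%). At 51 to 100 bases the Tle middle was nearer the stage 9 summit in 80 of 140 regions (57.1%, 48.9 to 65.0%). At over 100 and up to 200 bases it was so in 41 of 78 (52.6%, 41.6 to 63.3%). Both of these intervals include 50%. Tle-without-Foxa regions had about the same Tle shares, with 89 of 148 (60.1%, 52.1 to 67.7%) nearer the stage 8 summit at more than 200 bases and 53.1% at more than 50 bases. Where Tle was nearer the stage 8 summit, Foxa was nearer the stage 9 summit in 114 regions and nearer the stage 8 summit in 54. Where Tle was nearer the stage 9 summit, these numbers were 126 and 35. Foxa was thus mostly nearer the stage 9 summit whichever summit Tle was nearer. A link between the Tle and Foxa positions was not tested. An example of Tle nearer stage 8 and Foxa nearer stage 9, with a strong Foxa peak, lay on scaffold 1 from 175143733 to 175145022. There the Foxh1 summits were 439 bases apart, the Foxa middle was 85 bases from the stage 9 summit and the Tle middle was 168 bases from the stage 8 summit.

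For comparison, the Foxa middle was also mostly nearer the stage 9 summit at the 19 Foxa-without-Tle regions with summits more than 200 bases apart, where it held in 16. It held in 3 of 7 such regions with summits over 100 and up to 200 bases apart, and in 33 of all 54 with summits more than 50 bases apart (61.1%, 47.8 to 72.96%), an interval that includes 50%. With summits 51 to 100 bases apart, 14 of 28 such regions had the Foxa middle nearer the stage 9 summit, against 97 of 140 Tle/Foxa regions. Their intervals, 32.6 to 67.4% and 61.2 to 76.3%, overlap.

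**Figure D3:**
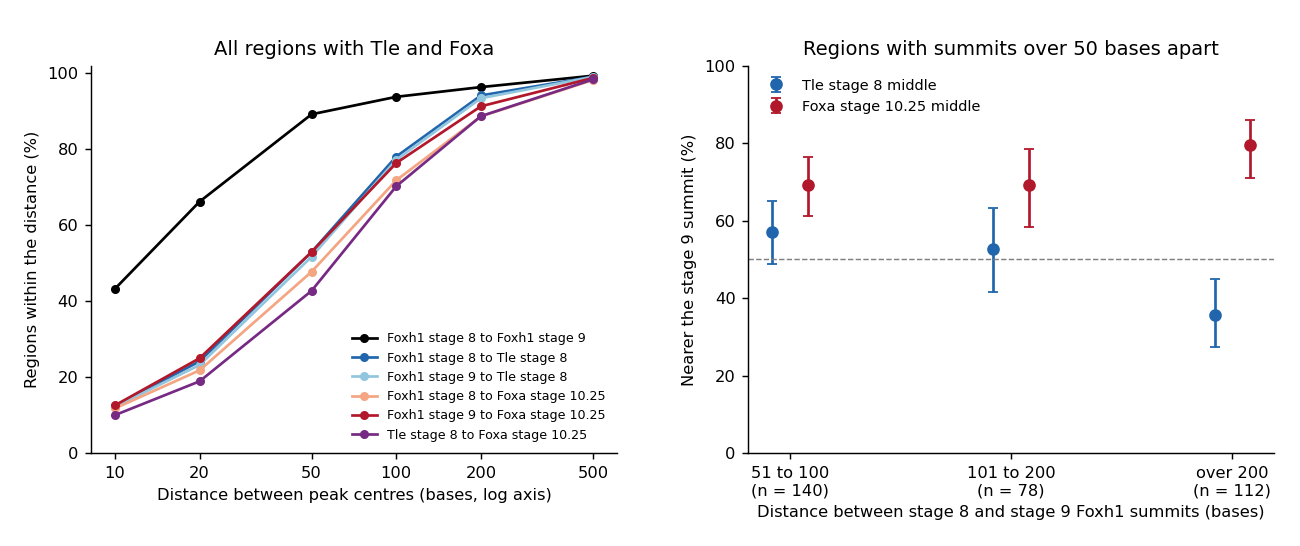
Left, share of the Tle/Foxa regions whose peak centres lie within a given distance (log axis, bases) for each pair of lists; right, share of those with Foxh1 summits over 50 bases apart whose Tle or Foxa middle is nearer the stage 9 summit, by distance between the summits, with Wilson 95% intervals and a dashed line at 50%. The Foxa share is 79.5% and the Tle share 35.7% where the summits are over 200 bases apart.

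The Tle/Foxa regions were spread over the genome and also lay in groups. Of the 3046, 2915 were on the 10 longest scaffolds, where they made up 16.3 to 20.2% of the blastula-stable regions of each scaffold. Scaffold length was taken as the furthest end of a peak on the scaffold. Per Mb of that length, their density there ran from 1.46 on scaffold 10 to 2.73 on scaffold 8. Another Tle/Foxa region was found within 50 kb of 1381 of them (45.3%, 43.6 to 47.1%), where 26.9% of all regions without a gastrula peak had one other than themselves. The shares were 28.1% for Tle-without-Foxa, 36.5% (34.0 to 39.0%) for Foxa-without-Tle and 24.5% for the other blastula-stable regions. Within 5 kb it was 20.1% of the Tle/Foxa regions, against 9.08, 11.6 and 5.64% in these classes and 6.82% of all regions without a gastrula peak. Tle/Foxa regions also had more regions of any kind around them, and the part of this in the shares was not tested. Of all regions within 50 kb to each side, Tle/Foxa regions made up 6.68% around Tle/Foxa regions. Around the other classes they made up 4.72, 5.78 and 4.42% in the same order. The share within 5 kb was 39.1% (28.1 to 51.3%) for the 64 regions with all rank shares above 90% and 17.2% (15.5 to 18.96%) for those with a lowest rank share of 50% or under.

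Joined wherever gaps were 20 kb or less, the regions formed 2023 single regions and 426 runs of 2 or more, with 1023 regions (33.6%) in runs. The longest run held 10 Tle/Foxa regions over 64.3 kb on scaffold 5 from 2349643 to 2413895. It had 13 stage 8 and 18 stage 9 Foxh1 peaks, 18 Tle and 19 Foxa peaks, and 1 peak each of gastrula Foxh1 and Smad2/3. It also contained the region whose lowest rank share was the highest of the class. A run of 8 on scaffold 1 from 38091054 to 38146703 held 28 stage 9 Foxh1 and 39 Foxa peaks against 13 stage 8 Foxh1 and 14 Tle peaks, with 2 gastrula Foxh1 peaks and 1 Smad2/3 peak. A run of 6 on scaffold 2 from 3979885 to 4002527, 1 of 5 runs of that size, held 12 stage 8 and 9 stage 9 Foxh1, 10 Tle and 8 Foxa peaks. It had no gastrula peak, and the closest lay 343.2 kb away.

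Although no Tle/Foxa region carried a gastrula peak, some had such a peak nearby. A peak of gastrula Foxh1 or Smad2/3 lay within 50 kb of 651 of the 3046 regions (21.4%, 20.0 to 22.9%). Over all regions without a gastrula peak of their own the share was 14.3%. It was 19.3% (17.3 to 21.4%) at Foxa-without-Tle, 10.7% (10.0 to 11.5%) at Tle-without-Foxa and 11.4% (10.53 to 12.3%) at the other blastula-stable regions. A Smad2/3 peak was within 50 kb of 259 Tle/Foxa regions (8.50%, 7.56 to 9.55%), against 5.19% of all regions without a gastrula peak, 8.23% of the Foxa-without-Tle and 2.94% of the Tle-without-Foxa regions. The classes with Foxa thus resembled each other, and their intervals overlapped, while both classes without Foxa lay lower. The number of regions of any kind in the surroundings also differed between the classes, and its part in these shares was not tested. Of all regions within 50 kb to each side, gastrula Foxh1 made up 2.40% around Tle/Foxa and 2.54% around Foxa-without-Tle regions. It made up 1.435% around Tle-without-Foxa and 1.71% around the other blastula-stable regions. Tle/Foxa regions lay above Tle-without-Foxa regions within each of the 5 classes of stage 9 rank, where their share was 13.9 to 23.7% and that of the latter 9.77 to 11.8%. In the lowest class the intervals overlapped, at 9.38 to 20.2% for 22 of 158 Tle/Foxa regions and 8.46 to 11.4% for Tle-without-Foxa regions. Foxa-without-Tle regions had shares of 12.8 to 24.9% over these classes, and their intervals overlapped those of the Tle/Foxa regions in each. In the highest class their share, at 24.9%, was above the 23.7% of the Tle/Foxa regions.

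Within the Tle/Foxa regions, closeness to gastrula binding moved with the Foxa peak. Divided into 4 equal classes by Foxa rank, from the lowest to the highest, 15.1, 16.9, 20.8 and 32.7% had a gastrula peak within 50 kb. The intervals of the end classes were 12.8 to 17.9% and 29.4 to 36.1%. The corresponding shares by Tle rank were 21.99, 22.1, 20.0 and 21.4%, and by stage 8 Foxh1 rank 23.2, 21.1, 21.2 and 20.0%. By stage 9 Foxh1 rank they were 18.8, 20.2, 21.2 and 25.3%. Among members above the median stage 9 rank, 12.7% (9.33 to 16.98%) of the lowest and 33.7% (29.8 to 37.9%) of the highest Foxa class had such a peak, and at or below that median 16.7 and 30.6%. The number of regions of any kind in the surroundings moved with the Foxa class too, from a mean of 10.8 in the lowest to 15.1 in the highest, and its part in these shares was not tested. Counted per surrounding region, gastrula Foxh1 made up 1.82% around the lowest and 3.16% around the highest class.

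**Figure D4:**
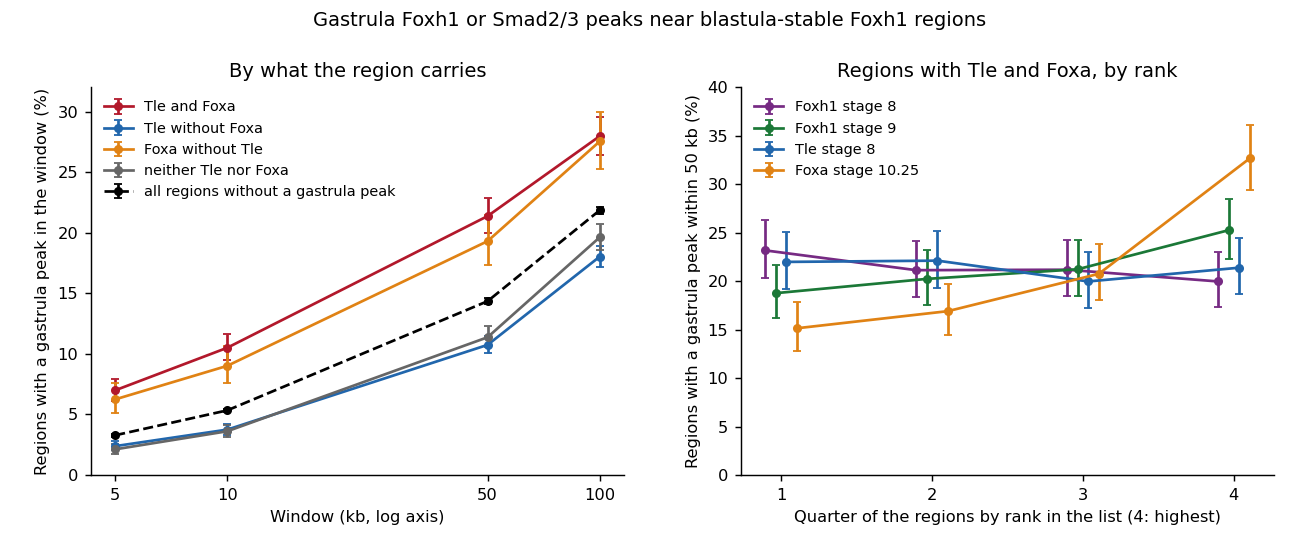
Share of regions with a gastrula Foxh1 or Smad2/3 peak nearby: left, by window (5 to 100 kb, log axis) for the 4 classes of blastula-stable regions and for all regions without a gastrula peak; right, within 50 kb for Tle/Foxa regions in 4 equal classes of rank in each list. Bars are Wilson 95% intervals. The classes with Foxa lie above those without at each window, and the share goes from 15.1 to 32.7% over the Foxa classes.

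The 3 Tle/Foxa regions closest to a Smad2/3 peak had high Foxh1 ranks. The first, on scaffold 5 from 88880847 to 88881813, was 155 bases from it and had folds of 46.6 at stage 8 and 34.0 at stage 9 with a Tle score of 136 and a Foxa score of 13.8. The second, on scaffold 5 from 117931959 to 117932863, was 247 bases away, with folds of 35.1 and 33.8. On scaffold 1, the region from 152993920 to 152995258 was 287 bases away and carried the highest Foxa score of the 3, at 83.8, with the Tle middle 702 bases from the stage 8 summit. Over all Tle/Foxa regions, the share with a Smad2/3 peak within 50 kb did not rise with stage 8 Foxh1 rank. From the lowest to the highest of 4 equal classes it was 9.24, 7.13, 8.42 and 9.20%. By stage 9 Foxh1 rank it was 5.51, 8.15, 8.26 and 12.1%. The range was wider by Foxa rank, at 5.22, 6.21, 8.28 and 14.3%. By Tle rank the shares were 9.16, 7.59, 8.07 and 9.19%.

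The surroundings of Tle/Foxa regions held more regions than those of the other blastula-stable classes. Within 50 kb to each side there was a mean of 12.2 other regions, against 8.99 around Tle-without-Foxa, 10.6 around Foxa-without-Tle and 8.06 around the other blastula-stable regions. Regions with Foxa but neither Foxh1 nor Tle numbered 4.12 on average, close to the 4.02 around Foxa-without-Tle and above the 2.40 around Tle-without-Foxa regions. Regions with Tle but neither Foxh1 nor Foxa numbered 1.82, close to the 1.88 around Tle-without-Foxa and above the 1.40 around Foxa-without-Tle regions. Foxh1 of stage 9 without stage 8 or gastrula Foxh1 was present 1.93 times, against 1.13 and 1.82, and Foxh1 of stage 8 alone 1.23 times, against 1.32 and 0.899. Around the other blastula-stable regions the means of these kinds were 2.56, 1.44, 1.19 and 0.959 in the order given. As a share of all surrounding regions, those with Foxa alone were 33.8% around Tle/Foxa, 37.9% around Foxa-without-Tle and 26.7% around Tle-without-Foxa regions. Around the other blastula-stable regions they were 31.8%, nearer to the Tle/Foxa value than the Foxa-without-Tle share was. Those with Tle alone were 15.0, 13.2, 20.9 and 17.9% in the same order. By share the Tle regions around Tle/Foxa regions were thus nearer to the Foxa-without-Tle value, and by number nearer to the Tle-without-Foxa value.

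**Figure D5:**
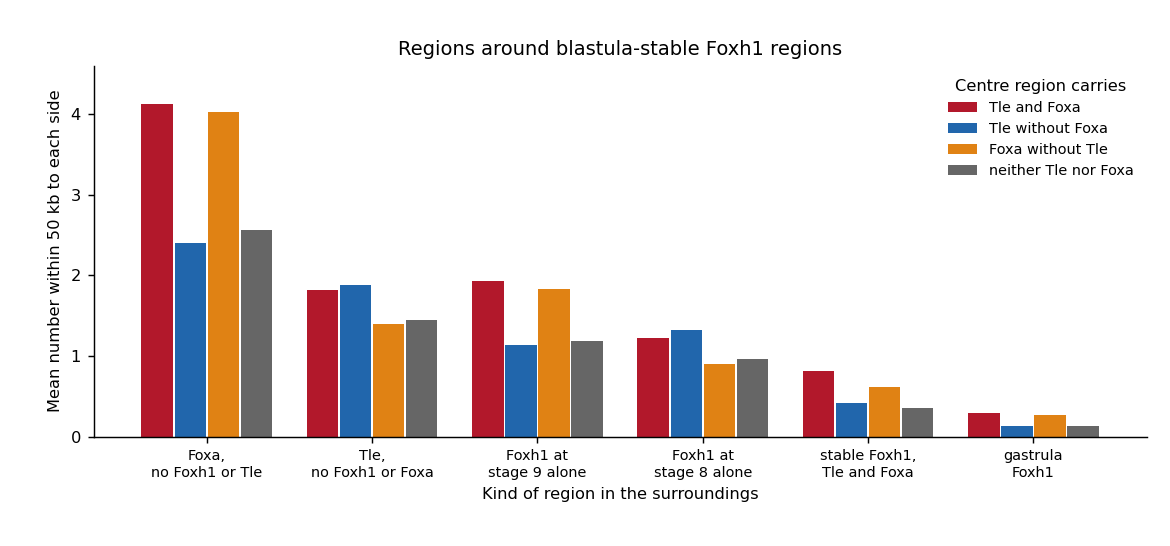
Mean number of other regions of 6 kinds within 50 kb to each side of a blastula-stable Foxh1 region, by what the region at the centre carries (bar colors). Around Tle/Foxa regions there are 4.12 regions with Foxa but neither Foxh1 nor Tle, and 1.82 with Tle but neither Foxh1 nor Foxa. The same numbers are 4.02 and 1.40 around Foxa-without-Tle and 2.40 and 1.88 around Tle-without-Foxa regions. Around regions with neither they are 2.56 and 1.44.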

How the data were processed

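ChIP-seq peak lists of 4 of the 11 samples were used, with 2 lists of the whole series; RNA polymerase II and input samples (7 in all) were not used here. The submitters' processing notes name MACS2 2.0.10, HOMER 4.7, Bowtie 1.0.0 and SAMtools. Genome build, controls and thresholds: not given in the sources used here. The deposited Foxh1 and Smad2/3 lists give a score, a fold enrichment (ratio over local background), a −log10 p and a summit per peak. The deposited Tle and Foxa lists give a score only, of unstated meaning (p or q); the middle of the peak was the centre. These are the authors' values, used within 1 list.

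Peaks overlapping by at least 1 base were merged, and a gap is counted from region edge to region or peak edge. Surrounding regions were counted by their middles. The highest peak of a list in a region gave its rank. Merging and distances were tested on simulated lists. The regions, lists and comparisons were chosen with earlier results of these data known. Named regions are the 8 highest by lowest rank share, up to 3 highest per list, widest, nearest to Smad2/3, longest runs and those at the border of the rule. Coordinates count from 1 on the scaffolds of the lists; genes and sequences were not analysed here. Tables were made in Python 3.11.15 with pandas 2.3.3 and numpy 2.4.6, intervals with scipy 1.17.1 and figures with matplotlib 3.10.9.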

Additional observations from a re-analysis of the deposited data

How the results depend on the processing

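Of 66 planned and 10 added values under other settings, those that left the interval of the reported value, or moved a count by over 1.5 times, are given here. With the upper 50% of each list by score, the gastrula lists included, 1393 regions qualified. That is more than the 1233 reported regions with all 4 peaks in the upper 50% of their lists. Fewer gastrula peaks were then left to exclude a region or to lie near one. Of the 1393, 34.9% had another within 50 kb and 95.9% a common stretch. A peak of the shortened gastrula lists lay within 50 kb of 16.8%. Median rank shares in the shortened lists were 66.7% for stage 8 Foxh1, 82.1% for stage 9 Foxh1 and 71.1% for Tle. With peaks cut to 100 bases on each side of their centres, the Tle/Foxa share of blastula-stable regions was 16.95%, 42.3% had another within 50 kb, 90.5% a common stretch and the stage 9 summit was a median of 42 bases from Foxa. With 1 peak of each list these shares were 17.4, 41.7 and 97.0%. An overlap of 50% of the shorter peak gave a common stretch in 95.7%. Windows of 10 and 100 kb gave 25.8 and 57.2% for another Tle/Foxa region and 10.51 and 28.0% for a gastrula peak, and Smad2/3 alone gave 8.50%. With middles for Foxh1, Tle was a median of 37 bases from stage 8 Foxh1. Where these middles were over 50 bases apart, Foxa was nearer stage 9 in 65.2% and Tle nearer stage 8 in 60.9%, with the 10 added alternatives chosen after seeing the data. The ratio of the highest to the lowest of 4 Foxa rank classes in closeness to gastrula peaks was 2.16, and 1.91 to 2.77 in its 4 alternatives. No paired analysis was possible because there is 1 list per factor and stage.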
